A study of Mus musculus with 4 samples.

Results

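Interferon-stimulated genes were followed as a group of 35 genes named by symbol, from the interferon-regulated transcription factors Irf1, Irf7, Irf9 and Stat2 to antiviral effectors such as Isg15, the Ifit, Oas and Mx genes, Rsad2 and Bst2. A row for 34 of the 35 was found among the 31053 features of the count tables. Mx2 was not analysed here. The genes were measured by single-cell RNA sequencing (10x Genomics 3′ chemistry) of the stromal vascular fraction, the cells pelleted after collagenase digestion of fat, with the red cells lysed. The fat was the fourth inguinal white depot, which holds the mammary ducts, from 8-week-old C57BL/6 mice. The cold group was kept at 4 °C for 24 h and the other group at room temperature for the same 24 h, with 2 libraries in each. The labels give no genotype beyond the strain and do not say whether a library came from 1 animal or from several, so every p-value below measures only the spread between these libraries.

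Type I interferons, which most nucleated cells can make after sensing foreign or misplaced nucleic acid, bind a receptor on nearly all cells and activate a complex of transcription factors that includes Stat2 and Irf9. That complex binds the interferon-stimulated response element in the promoters of its target genes, whose products bind, cut or trap viral RNA, tag proteins or raise the cell's own sensing. Interferon gamma, made mainly by T and natural killer cells, acts through another promoter element, the gamma-activated site, and shares part of the same gene set. Without infection many cell types still express these genes at a low, tonic level.

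The promoters of the members are shown first because the group is defined by response to interferon, and both promoter elements named above can be searched for as runs of letters. RefSeq promoter windows of GRCm38.p6, each 300 bases long with 250 before and 50 after a gene's start, were found for 25 of the 34 members. The core of the response element was searched on both strands as GAAA, 2 bases of any kind, then GAAA. At least 1 match lay in a window of 15 of the 25 members (60%), against 3.44% of all 32851 windows. The core of the gamma-activated site, TTCNNNGAA, lay in a window of 6 members (24%), against 8.30% of all windows, and the motifs can overlap each other. Windows of Irf7, Oasl1 and Oasl2 held neither run of letters. Capitals mark matches to either core, in the strand of the gene, and the runs shown are the stretches around the matches in 6 of the members that the results turn on.
Isg15, chr4:156200845-156200926, minus strand, 3 overlapping matches to the response element core: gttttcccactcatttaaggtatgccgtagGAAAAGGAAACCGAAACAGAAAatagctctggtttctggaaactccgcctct
Ifit3, chr19:34583343-34583446, plus strand, 2 matches: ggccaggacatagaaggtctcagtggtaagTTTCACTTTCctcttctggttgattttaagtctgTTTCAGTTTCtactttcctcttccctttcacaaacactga
Ifit1, chr19:34640755-34640843, plus strand, 2 matches: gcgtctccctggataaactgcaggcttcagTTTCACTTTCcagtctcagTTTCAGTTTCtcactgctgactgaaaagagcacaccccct
Rsad2, chr12:26456533-26456602, minus strand, 1 match: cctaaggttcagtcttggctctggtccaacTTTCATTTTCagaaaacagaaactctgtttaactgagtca
Bst2, chr8:71537557-71537632, minus strand, 2 matches and an overlapping gamma-activated site core: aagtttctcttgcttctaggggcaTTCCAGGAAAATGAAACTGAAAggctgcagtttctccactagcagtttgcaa
Irf1, chr11:53769894-53769962, plus strand, 1 gamma-activated site core and no response element core: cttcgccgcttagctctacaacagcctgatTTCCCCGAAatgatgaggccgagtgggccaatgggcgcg
The Irf1 window differed from the other 5 in holding the gamma-activated site core alone. A match describes letters in these windows and does not show that a factor was bound there. Of the members whose windows held no core, Irf7 spans chr7:141262706-141266481 (minus strand) and Oasl1 chr5:114923240-114937915 (plus strand) in the GENCODE annotation of GRCm38.

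The files held 4840 and 3871 cell barcodes for the cold libraries and 6339 and 4168 for the room-temperature libraries, with 35198164 to 55160902 unique molecular identifiers (UMIs, each counting 1 captured RNA molecule) a library. After filtering and removal of 74 to 239 predicted doublets, 3929, 2971, 5232 and 3065 cells were kept in cold 1, cold 2, room temperature 1 and room temperature 2. Any pair of libraries shared 1 to 8 barcodes. Cells were clustered and each cluster was named for the cell type whose marker genes led it, so that "macrophage" below means macrophage-like by those markers. UMIs were summed per library and class and scaled to 1000000 UMIs of that class and library (CPM), and 9 classes with at least 20 cells in every library were tested. The macrophage and monocyte class held 579, 363, 1494 and 884 cells, and the fibroblast and adipose progenitor class 719, 463, 1336 and 353. A sum over a class cannot tell more expressing cells from more RNA in each of them.

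In macrophage-like cells, all 34 members had a lower estimate in the cold, with a median log2 fold change of -0.96, and 33 had both cold libraries below both room-temperature libraries. Fibroblast-like cells had 32 of 34 below 0 (median -0.67) and endothelial-like cells 28 of the 30 that passed the filter on low counts (median -0.64). T and B cells did the opposite, with median estimates of 0.54 over 28 members and 0.52 over 20, and there the second cold library held most of the signal. In those 5 classes the median over all genes tested was within 0.01 of 0. Summed over 31 members (leaving out Ifitm3, Ifi27l2a and Bst2, the 3 with the highest level over all kept cells), macrophage-like cells held 1538 and 1671 CPM in the cold and 2407 and 3637 CPM at room temperature. Fibroblast-like cells held 1347 and 1327 CPM and 1633 and 2440.1 CPM in the same order. T cells held 492 and 1515 CPM in the cold libraries and 557 and 589.7 CPM at room temperature, so that 1 library stood apart from the other three.

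**Figure D1:**
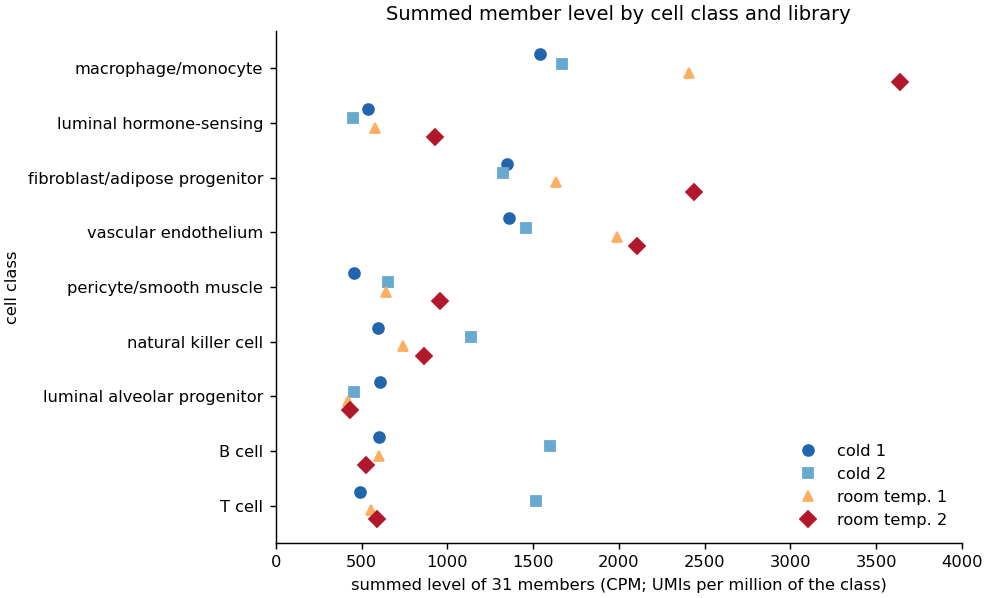
Summed level of 31 members in each of the 4 libraries, in CPM (x axis), for the 9 tested cell classes (y axis); each point is 1 library. In macrophage-like cells both room-temperature points (2407 and 3637 CPM) lie right of both cold points (1538 and 1671 CPM), while in T and B cells the second cold library (1515 and 1601 CPM) stands alone.

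Few single members passed the test (edgeR quasi-likelihood, Benjamini-Hochberg adjusted over all genes of a class, 0.05). In the macrophage-like class 2 of 34 members fell, Rsad2 and Oasl1, and none rose, where 0.292% of the 10969 genes tested fell and 0.1% rose. At an unadjusted p under 0.05, 29 members were lower in the cold and none was higher, where 7% of all genes were lower. In the fibroblast-like class 7 of 34 fell and none rose, against 1.91% and 1.36% of 11609 genes. Groups that do not overlap were common over all genes: both cold libraries lay below both room-temperature libraries for 20.8% of genes in macrophage-like and 29.3% in fibroblast-like cells, against 33 and 22 of the 34 members. In the endothelial-like class no member passed, and no gene at all did (0% fell, 0% rose). No member was called in the remaining 6 classes either, where the background was 1.9% fallen and 0.643% risen genes in T cells, 0.0307% and 0.0768% in B cells, 0.803% and 0.762% in natural killer cells, 0% and 0.00783% in luminal hormone-sensing cells, 0.0274% and 0.096% in luminal alveolar progenitors, and 0% and 0% in pericytes. At an unadjusted p under 0.05, 19 of 30 members were lower in endothelial-like cells (4.52% of all genes) and 10 of 33 in luminal hormone-sensing cells (5.88%). In the other direction, 9 of 20 were higher in B cells (4.7% of all genes) and 5 of 28 in T cells (9.54%). DESeq2 called 17 members lower in macrophage-like cells, where 2.32% of the genes to which it gave an adjusted p fell, 9 in fibroblast-like cells (2.02%), 2 in endothelial-like cells (0.415%) and 2 in luminal hormone-sensing cells (0.482%). It called none in the other 5 classes.

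**Figure D2:**
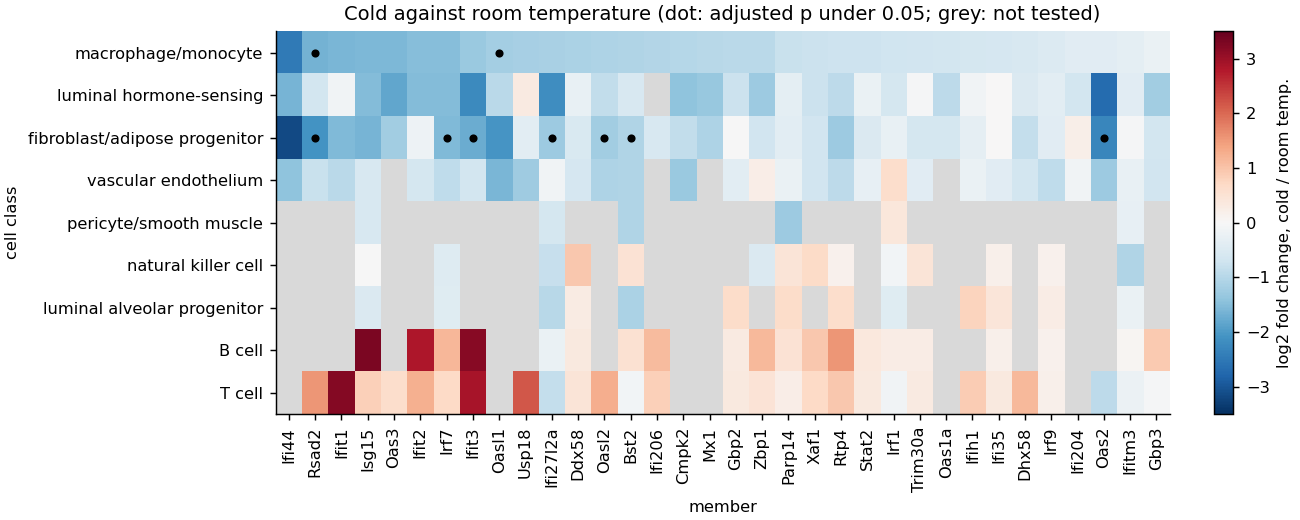
Log2 fold change of cold against room temperature (colour, edgeR) for each member (x axis, ordered by the macrophage value) in each class (y axis); a dot marks an adjusted p under 0.05 and grey a member that was not tested. Blue fills the macrophage row, where all 34 members are below 0, and red most of the T and B cell rows, where 6 of 28 and 1 of 20 are below 0.

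Among the transcription factors, macrophage-like cells carried Irf7, the factor that amplifies type I interferon production, at 65.3 and 67.8 CPM in the cold and 107 and 266 CPM at room temperature. The highest library was room temperature 2, and the groups did not overlap, but the difference did not pass the test (log2 fold change -1.48, SE 0.38, adjusted p = 0.207). Irf1, a factor induced by both kinds of interferon, was at 133 and 128 CPM in the cold and 208 and 215 CPM at room temperature, with replicates close together in each group (-0.70, SE 0.12, adjusted p = 0.0802). Stat2 and Irf9, members of the type I complex, had estimates of -0.72 and -0.48 (adjusted p = 0.111 and 0.298), and no factor of the 4 had overlapping groups.

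The antiviral gene Rsad2, whose product viperin makes a chain-terminating nucleotide, stood at 45.7 and 56 CPM in the cold macrophage libraries and 129.7 and 188 CPM in the room-temperature ones. It fell by 1.66 on the log2 scale (SE 0.20, adjusted p = 0.0377, edgeR). Oasl1, a relative of the oligoadenylate synthetases that lacks their enzyme activity, was at 40.9 and 55.6 CPM in the cold and 104 and 114 CPM at room temperature and fell by 1.20 (SE 0.17, adjusted p = 0.0491). In both genes the room-temperature libraries were closer to each other than to either cold library. Isg15, the ubiquitin-like protein tag, was at 69.7 and 67.8 CPM in the cold and 143 and 269 CPM at room temperature (-1.58, SE 0.28, adjusted p = 0.0921).

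Ifi44, an interferon-induced gene of uncertain function, had the largest macrophage estimate of the members with a mean of at least 20 CPM. Its level was 6.81 and 6.47 CPM in the cold and 19 and 57 CPM at room temperature (-2.48, SE 0.55, adjusted p = 0.165). Ifit1, which binds viral RNA lacking the cap methyl groups of the host, was at 26.4 and 22.5 CPM and 44.6 and 105 CPM (-1.59, adjusted p = 0.184). Its partner Ifit3 was at 31.2 and 35.8 CPM and 45.6 and 120.3 CPM (-1.30, adjusted p = 0.309), and Oas3, which makes the second messenger of RNase L, at 24.8 and 24.7 CPM and 42.7 and 106 CPM (-1.57, adjusted p = 0.205). In these 4 genes the cold libraries agreed closely while room temperature 2 lay more than 2-fold above room temperature 1. Reads of Ifit3 and Oas1a may be shared with their near-identical copies Ifit3b and Oas1g, so the values of both are uncertain on that account.

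Of the 3 most abundant members, Ifitm3 had a smaller estimate than the members' median, and Bst2 and Ifi27l2a did not. Ifitm3, a membrane protein that blocks viral fusion, was at 2167 and 1893 CPM in cold macrophage libraries and 2458 and 2668 CPM at room temperature (-0.34, SE 0.15, adjusted p = 0.42). Bst2, or tetherin, which holds budding virions at the cell surface, was at 283 and 276 CPM and 454 and 712 CPM (-1.06, SE 0.21, adjusted p = 0.119). Ifi27l2a was at 1829.8 and 1333 CPM and 2952 and 3931 CPM (-1.13, adjusted p = 0.11). By role, the medians in macrophage-like cells were -0.71 over the 4 transcription factors, -0.61 over the 3 RNA sensors (Ifih1, Ddx58 and Dhx58), -1.09 over the 11 nucleic acid binding members and -0.97 over the 7 direct antiviral blocks. The median was -1.37 over Isg15 and Usp18 and -0.75 over the 7 other induced members. Oas1a, at 13 and 12.9 CPM in the cold and 12.3 and 28.6 CPM at room temperature, was the only member whose groups overlapped. At the low end, Gbp3, a guanylate-binding protein, had an estimate of -0.22 (adjusted p = 0.564).

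**Figure D3:**
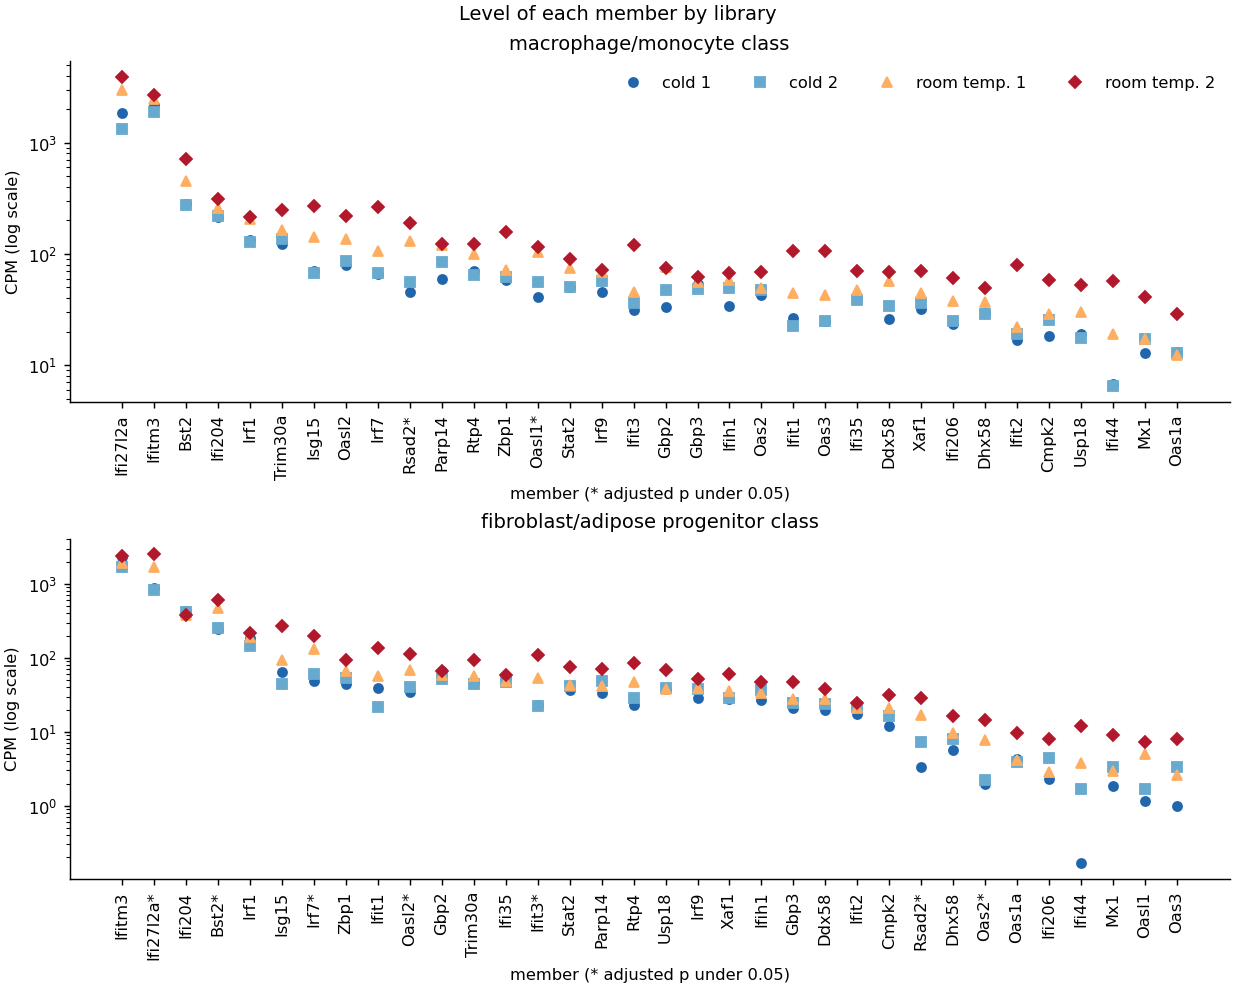
Level of each of the 34 members in CPM (y axis, log scale) in each of the 4 libraries, in macrophage-like (top) and fibroblast-like cells (bottom); members are ordered by their mean over the libraries and an asterisk marks an adjusted p under 0.05. Room temperature 2 (diamonds) is the highest library for most members, for example Irf7 at 266 CPM in macrophage-like cells against 107 CPM in room temperature 1.

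The room-temperature libraries did not agree in macrophage-like cells. On the TMM scale (edgeR's library scaling) 33 of 34 members were higher in room temperature 2 than in room temperature 1, with a median log2 ratio of 0.56, and 9 members were over 2-fold apart, where 3.34% of all genes were. Between the cold libraries no member was over 2-fold apart (3.54% of all genes) and the median ratio was 0.05. The 95% Poisson intervals of the UMI counts, which cover counting error only, did not overlap between the room-temperature libraries for 27 of 34 members. Leaving out room temperature 2, 14 members fell (median -0.60, 33 of 34 below 0; 198 of 11247 genes fell), and leaving out room temperature 1, 28 fell (median -1.23; 262 of 11279 genes). Without cold 1 or without cold 2 all 34 were still below 0 (medians -0.77 and -1.04). The absence of member calls in both fits cannot speak to the members, since hardly any gene was called there. With a group reduced to 1 library, that library is assumed to vary like the other group.

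The room-temperature libraries also differed in how many cells they had in 1 macrophage cluster. It held 287 cells, 213 of them from room temperature 2, where it made up 24.1% of the class, against 2.25%, 4.68% and 2.95% in cold 1, cold 2 and room temperature 1. Its summed member level was 7954, 4212, 6661 and 6860 CPM in the 4 libraries, above that of the other macrophage clusters in each. In the other macrophage clusters with at least 20 cells in every library, room temperature 2 was above room temperature 1 in 4 of 5 (2878 against 2091, 1898 against 1592, 3515 against 2701 and 2597 against 1932 CPM) and below it in the fifth (2296 against 3375 CPM). The cluster of 287 cells also carried B cell markers at 938 CPM, T cell markers at 234 CPM and erythroid markers at 255 CPM. Over the other 7 macrophage clusters these ran from 103 to 687, from 44.1 to 380 and from 2.61 to 10.5 CPM, so that 1 of them, of 51 cells, had more of the T cell markers. Over the whole class erythroid markers were at 7.91 and 8.38 CPM in the cold and 8.1 and 109 CPM at room temperature, and fibroblast markers at 82.9 and 85.3 CPM in the cold against 323 and 156 CPM at room temperature. Their part in the result was not tested.

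With the cluster of 287 cells alone left out, the summed level was 1330.3 and 1482 CPM in the cold and 2235 and 2241 CPM at room temperature, and 32 of 34 members had both cold libraries below. Fits without it and 1 small cluster that also met a second marker list left 559, 343, 1427 and 653 macrophage-like cells. Both alternatives were chosen after seeing the data. Both take out the cluster with the highest member level, most of whose cells came from room temperature 2. That lowers room temperature 2 by construction, so closer room-temperature libraries there are no independent result. In the fits the summed level was 1354 and 1520 CPM in the cold and 2280 and 2306 CPM at room temperature, room temperature 2 was the higher for 19 of 34 members, and none was over 2-fold apart (618 of 10562 genes were). All 34 members remained below 0 (median -0.78) and 33 had both cold libraries below both room-temperature libraries. No member passed the test (4 of 10562 genes fell), with Rsad2 at -1.52 (adjusted p = 0.106) and Oasl1 at -0.89 (adjusted p = 0.481). The members took part in the clustering. The cells were also clustered without the members and without the other interferon pathway genes and the immediate-early and heat shock genes listed below. The 287 cells then spread over 7 clusters, of which the largest held 106 of them, and all 287 stayed in the macrophage-like class. Leaving out the members alone was not tried. Within the 5 other macrophage clusters with enough cells in every library, the median log2 ratio of cold to room temperature was -0.71, -1.17, -0.75, -0.62 and -0.56.

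Fibroblast-like cells had 7 members called by edgeR with all 4 libraries, against 2 in macrophage-like cells, an order that turned with DESeq2 (9 against 17), a replicate block (17 against 29), no filter on low counts (20 against 27), or either room-temperature library left out (18 against 28 without the first and 10 against 14 without the second). Irf7 was at 48.6 and 60.8 CPM in the cold and 130.2 and 197 CPM at room temperature and fell by 1.53 on the log2 scale (SE 0.20, adjusted p = 0.0174, edgeR). Bst2, at 242 and 255 CPM in the cold and 469 and 604 CPM at room temperature, fell by 1.06 (SE 0.15, adjusted p = 0.0206). Ifi27l2a, the most abundant of the 7, was at 887 and 824 CPM and 1717 and 2534 CPM and fell by 1.26 (SE 0.20, adjusted p = 0.0302). In all 3 genes the cold libraries agreed closely, and room temperature 2 was above room temperature 1.

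Among the nucleic acid binding members, Ifit3 was at 23 and 22.4 CPM in the cold fibroblast libraries and 53.4 and 108 CPM at room temperature, a fall of 1.73 (SE 0.31, adjusted p = 0.04). Oas2 was scarce, at 1.99 and 2.24 CPM and 7.74 and 14.4 CPM, and fell by 2.28 (SE 0.41, adjusted p = 0.04). Oasl2, at 34.2 and 39.8 CPM and 67.5 and 111 CPM, fell by 1.21 (SE 0.22, adjusted p = 0.0413). The direct antiviral gene Rsad2, at 3.32 and 7.28 CPM in the cold and 16.8 and 28.6 CPM at room temperature, fell by 2.09 (SE 0.38, adjusted p = 0.04) and was the only member called in both this class and macrophage-like cells. None of the 7 had overlapping groups.

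Others had large estimates without passing. Isg15 was at 63.7 and 44.5 CPM in the cold and 92.7 and 266 CPM at room temperature (-1.62, SE 0.45, adjusted p = 0.116), and Ifit1 at 38.8 and 21.8 CPM and 57 and 137 CPM (-1.54, adjusted p = 0.116). Rtp4, a chaperone of receptors that also has antiviral activity, was at 23.4 and 28.8 CPM and 47.5 and 86.3 CPM (-1.28, adjusted p = 0.0545). Ifitm3 overlapped between groups, at 2309 and 1702 CPM and 1932 and 2379.9 CPM (-0.05, adjusted p = 0.926). Irf1 was at 184 and 143 CPM and 193 and 216 CPM (-0.27, adjusted p = 0.421). Ifi204, a DNA sensor of the p200 family, was the only member with both cold libraries above, at 436 and 414 CPM against 378 and 380.2 CPM (0.21, adjusted p = 0.419).

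In fibroblast-like cells the room-temperature libraries differed in the same direction as in macrophage-like cells. Room temperature 2 was the higher for 33 of 34 members, 7 were over 2-fold apart (2.86% of all genes), and the median log2 ratio was 0.66. Between the cold libraries 2 members were over 2-fold apart (3.03% of all genes). Without room temperature 2, 10 members fell (420 of 12373 genes), and without room temperature 1, 18 fell (317 of 11739 genes). Without cold 1 or without cold 2, 33 and 30 of 34 were below 0 (medians -0.62 and -0.89). Fewer members and fewer genes passed than with all libraries.

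The makeup of the fibroblast-like class also moved with the group. Its own markers summed to 26507 and 27608 CPM in the cold and 45435 and 43421 CPM at room temperature, and macrophage markers to 72.5 and 66.9 CPM in the cold and 138 and 132 CPM at room temperature. A cluster led by Cxcl13 held 433 and 220 cells in the cold and 59 and 3 at room temperature, and its part in the result was not tested. In the cluster led by Igfbp6 and Pi16, with 75, 98, 411 and 148 cells, the median log2 ratio of cold to room temperature was -0.83, and 18 members had both cold libraries below. The ratio was smaller in the 3 other clusters with enough cells in every library: -0.52 in the one led by Col3a1 and Postn, -0.49 in a second one that carried Igfbp6 and Pi16, and -0.28 in one led by Inmt and Apod. In the Postn cluster the summed level was 1235 and 1394 CPM in the cold and 1331 and 1318 CPM at room temperature, and 4 members had both cold libraries above. Without the 3 clusters that met a second marker list, an alternative chosen after seeing the data, 6 members fell where 106 of 10894 genes did (Oasl2, Oasl1, Irf7, Bst2, Rsad2 and Ifi27l2a), Ifit3 and Oas2 no longer passed (adjusted p = 0.0724 for both), and 33 of 34 were below 0 (median -0.96). The room-temperature libraries still differed there. Room temperature 2 was the higher for 33 of 34 members (median log2 ratio 0.79), and 11 were over 2-fold apart (379 of 10894 genes). The summed level was 1375 and 1361 CPM in the cold and 1837 and 3024 CPM at room temperature.

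Endothelial-like cells had room-temperature libraries that agreed in the members. None of the 30 members tested was over 2-fold apart between them (6.17% of all genes), with a median log2 ratio of 0.12, and 3 were over 2-fold apart between the cold libraries (4.78% of all genes). Both cold libraries lay below both room-temperature libraries for 25 members, against 23.8% of all genes. Ifi44 was at 28.8 and 35.1 CPM in the cold and 70.7 and 101 CPM at room temperature (-1.41, SE 0.24, adjusted p = 0.189). Cmpk2, a mitochondrial nucleotide kinase beside Rsad2 in the genome, was at 14.7 and 23.9 CPM and 46.3 and 49.4 CPM (-1.31, adjusted p = 0.197). Bst2, at 265 and 300.5 CPM and 531 and 669 CPM (-1.06, adjusted p = 0.179), had the smallest adjusted p of the class, and its estimate matched those of macrophage-like and fibroblast-like cells to 2 decimals.

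Further down the list in endothelial-like cells, Oasl2 was at 22.7 and 16.7 CPM in the cold and 35.3 and 50 CPM at room temperature (-1.07, adjusted p = 0.292). Ifit1 was at 44.7 and 43.8 CPM and 70.1 and 103 CPM (-0.94, adjusted p = 0.249). Irf7 was at 45.9 and 62.2 CPM and 101 and 102 CPM (-0.89, adjusted p = 0.197), and its room-temperature libraries were almost equal. Isg15 (100.4 and 139 CPM and 163 and 195 CPM; -0.56, adjusted p = 0.433), Ifit3 (42.2 and 27.9 and 52.1 and 60.3 CPM; -0.64, adjusted p = 0.424) and Ifitm3 (2209.9 and 1907 and 2349 and 2635 CPM; -0.25, adjusted p = 0.621) had smaller estimates. Irf1 went the other way, at 238 and 195 CPM in the cold and 156 and 133 CPM at room temperature (0.61, adjusted p = 0.292), and was the only member with both cold libraries above.

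The endothelial class held 3 clusters, and in the one led by Fabp4 and Gpihbp1, the only one that met no second marker list, the call changed. With its 124, 71, 92 and 103 cells alone, an alternative chosen after seeing the data, 8 of 26 members fell, where 58 of 6786 genes did: Ifi44, Isg15, Bst2, Rsad2, Cmpk2, Rtp4, Ifit3 and Ifit1. Of the 26, 23 were below 0. Ifi27l2a (0.84, adjusted p = 0.0778, edgeR), Irf1 (0.45, adjusted p = 0.262) and Ifi204 (0.40, adjusted p = 0.83) were above it. The smallest adjusted p was 0.00327, for Ifi44 (log2 fold change -2.29), and the summed member level was 1476 and 1779 CPM in the cold and 2716 and 2581 CPM at room temperature. Room temperature 2 was the higher for 11 of those 26. Over the whole class some markers of other types differed between the room-temperature libraries. Erythroid markers were at 2309 and 1286 CPM in the cold and 5195 and 366 CPM at room temperature. Lymphatic markers were at 478 and 332 CPM and 608 and 72.3 CPM, and mast cell markers at 6.12 and 0.797 CPM and 204 and 0 CPM. Their part in the result was not tested.

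In luminal hormone-sensing-like cells, the ductal cells that carry oestrogen, progesterone and prolactin receptors, 31 of the 33 members tested were below 0 (median -0.76) and 18 had both cold libraries below, against 25.4% of all genes. The smallest adjusted p was 0.411. The class lay in different clusters by library. The one led by Prlr held 91.7% and 70.4% of it in the cold and 24.5% and 66.9% at room temperature. Within that cluster the summed member level was 416 and 425 CPM in the cold and 484 and 418 CPM at room temperature, 16 of 34 members were below 0 and the median log2 ratio was 0.03. In the next largest cluster, led by Upk3a and Fgb, the median was 0.17 with 13 below 0. Over the class, the median was -0.33 (23 of 31 below 0) without the clusters that met a second marker list, -0.46 with Leiden resolution 2, -0.42 with doublets kept and -0.32 without room temperature 2. The values below are of the whole class, so that they mix these clusters in unequal shares. Ifi27l2a was at 5.83 and 11.8 CPM in the cold and 22.4 and 63.4 CPM at room temperature (-2.18, adjusted p = 0.411). Isg15 was at 36.3 and 21.4 CPM and 41.4 and 136 CPM (-1.51, adjusted p = 0.435). Room temperature 2 carried most of that difference, as it did for Irf7 (7.52 and 8.65 CPM and 12.6 and 38.1 CPM; -1.52) and Ifit3 (2.03 and 1.01 CPM and 3.5 and 12.4 CPM; -2.24).

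In other luminal members the room-temperature libraries were closer, and those of Irf1, Rtp4 and Ifitm3 agreed best. Irf1 was at 46.4 and 53.2 CPM in the cold and 76.4 and 79 CPM at room temperature (-0.61, SE 0.12, adjusted p = 0.411), and Rtp4 at 16.5 and 21.9 CPM and 33.8 and 41.2 CPM (-0.92, SE 0.18, adjusted p = 0.411). Ifitm3 was at 716 and 551 CPM and 857 and 872 CPM (-0.41), Bst2 at 101 and 100.1 CPM and 109 and 201 CPM (-0.56), Oasl2 at 18.5 and 13.4 CPM and 22.2 and 38.9 CPM (-0.85), and Gbp2, a guanylate-binding protein, at 26.9 and 14.7 CPM and 23.3 and 52.1 CPM (-0.76). Over all 33, 13 were over 2-fold apart between the room-temperature libraries (6.38% of all genes) and 28 were higher in room temperature 2, which held only 139 cells of this class. There, the top 10% of cells by member UMIs (14 cells) held 64.7% of them. Ifit2, Oas3, Rsad2, Bst2, Ifi27l2a, Ifi204 and Trim30a were each at under 5% of their level in the highest class, a level that RNA released from other cells could give. Macrophage markers in this class were at 42.6 and 30 CPM in the cold and 115 and 93 CPM at room temperature, and their part was not tested.

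Luminal alveolar progenitor-like cells showed no shared direction, and 6 of 13 members tested there were below 0 (median 0.25). Bst2 was at 34.8 and 44.5 CPM in the cold and 79.5 and 80 CPM at room temperature (-1.11, adjusted p = 0.273), Ifi27l2a at 21.3 and 13.3 CPM and 44.8 and 22.2 CPM (-0.98), and the RNA sensor Ifih1 at 48.3 and 51.2 CPM and 26 and 27.4 CPM (0.79). Bst2 and Ifi27l2a were each at under 5% of their level in the highest class, which RNA released from other cells could give. Parp14, an ADP-ribosyltransferase, was at 44.5 and 51.2 CPM and 15.9 and 37.8 CPM (0.65). Isg15 (5.8 and 40 CPM and 54.9 and 9.64 CPM), Rtp4 (69.6 and 15.6 CPM and 28.9 and 24.5 CPM), Irf7 (9.67 and 22.2 CPM and 15.9 and 22.2 CPM), Irf1 (38.7 and 31.1 CPM and 60.7 and 29.6 CPM) and Ifitm3 (220.4 and 182 CPM and 264 and 180.1 CPM) overlapped between groups, and Ifit3 had 0 to 2 UMIs a library and was not tested.

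Pericyte-like and smooth muscle-like cells, with 24 to 57 cells a library, had 6 members tested, of which 5 were below 0 (median -0.58). Parp14 was at 25 and 22.9 CPM in the cold and 64.4 and 56.4 CPM at room temperature (-1.27, adjusted p = 0.658), and Bst2 at 53.7 and 68.6 CPM and 129 and 132 CPM (-1.07, adjusted p = 0.64). Bst2 was at under 5% of its level in the highest class, which RNA released from other cells could give. Ifi27l2a (189.7 and 62.8 CPM and 218 and 201 CPM; -0.61) and Isg15 (68 and 62.8 CPM and 82.3 and 125 CPM; -0.55) did not overlap, while Ifitm3 (909 and 1063 CPM and 991 and 1479.6 CPM) and Irf1 (179 and 217 CPM and 193 and 100.3 CPM; 0.41) did. Irf7 and Ifit3 rested on 1 to 10 and 0 to 10 UMIs a library and were not tested.

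In T cells the cold libraries disagreed. Ifit1 was at 6.6 and 116 CPM in the cold and 3.38 and 7.53 CPM at room temperature (3.22, SE 1.16, adjusted p = 0.167). Ifit3 was at 4.34 and 101 CPM and 4.82 and 7.22 CPM (2.89, SE 1.18, adjusted p = 0.215). In both, cold 2 stood alone and cold 1 lay at the room-temperature level. Isg15, at 25.2 and 167 CPM and 41 and 56.6 CPM (0.82), Irf7, at 16.7 and 72.2 CPM and 20.7 and 28 CPM (0.70), and Rtp4, at 9.9 and 66.3 CPM and 15 and 19.6 CPM (0.95), had cold 1 as the lowest and cold 2 as the highest library.

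Other T cell members did not follow cold 2 so far. Irf1 was level, at 77.8 and 81.1 CPM in the cold and 78.2 and 86.4 CPM at room temperature. Bst2 (71.2 and 116 CPM and 83.9 and 104 CPM) and Ifitm3 (29.2 and 25.7 CPM and 40.5 and 22 CPM) overlapped as well, both at under 5% of their highest class. Ifi27l2a was at 231 and 664 CPM and 578 and 902 CPM (-0.83, adjusted p = 0.265). Ifi206, at 37.9 and 71.9 CPM and 31.4 and 26.5 CPM (0.83), had the smallest adjusted p of the class, 0.121. With Ifit2, Usp18 and Gbp2 it was 1 of 4 members with both cold libraries above both room-temperature libraries, where 33% of all genes tested were.

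Over the 28 T cell members tested, 19 were over 2-fold apart between the cold libraries (2.35% of all genes), 26 were higher in cold 2, and the median log2 ratio was 1.38. Between the room-temperature libraries 1 was over 2-fold apart (3.74% of all genes). Leaving out cold 1, 24 members rose (median 1.36; 312 of 10234 genes rose). Leaving out cold 2, 22 of 28 were below 0 (median -0.31), so the direction in T cells rested on 1 library. A cluster led by Cd8b1, Nkg7 and Ccl5, with 450, 231, 44 and 9 cells, had summed levels of 603, 2772, 660 and 2338 CPM, a cluster led by Tnfrsf4 and Ctla4 502, 1189, 623 and 693 CPM, and the largest T cell cluster 511, 798, 571 and 551 CPM. Cold 2 was the highest library in each of these clusters, and in the Cd8b1 cluster the 9 cells of room temperature 2 were high as well.

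B cells showed cold 2 in the same position. Isg15 was at 31.1 and 271 CPM in the cold and 18.8 and 9.34 CPM at room temperature (3.30, SE 0.68, adjusted p = 0.0981), and Ifit3 at 20.2 and 109 CPM and 8.17 and 5.61 CPM (3.17, SE 0.62, adjusted p = 0.0832). Cold 1 was the second highest library for both. Rtp4 (27.9 and 55.3 CPM and 19.6 and 5.61 CPM; 1.54), Irf7 (43.5 and 81.6 CPM and 30.2 and 26.2 CPM; 1.17) and Zbp1, a sensor of Z-form nucleic acid (37.3 and 83 CPM and 23.7 and 37.4 CPM; 1.13), had smaller estimates; the groups of Zbp1 overlapped narrowly. Irf1 (21.7 and 70.5 CPM and 44.1 and 33.6 CPM), Bst2 (74.5 and 101 CPM and 55.6 and 74.7 CPM) and Ifitm3 (55.9 and 42.9 CPM and 49 and 48.6 CPM) overlapped. Bst2 and Ifitm3 were at under 5% of their highest class here as well. Both cold libraries were above for 8 of 20 members, against 15.1% of all genes. Between the cold libraries 7 of 20 were over 2-fold apart (8.46% of all genes) and between the room-temperature libraries 1 was (4.92%). Erythroid markers in this class were at 7.76 and 7621 CPM in the cold and 2955 and 7883 CPM at room temperature. Plasma cell markers were at 394 and 2088 CPM and 337 and 4178 CPM, and the part of either was not tested. Without cold 2 no member passed (6 of 20 below 0, median 0.41), where 166 of 6814 genes rose, and without cold 1, 9 rose, where 90 of 7232 genes did.

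Natural killer-like cells, with 59 to 162 cells a library, had 14 members tested and no shared direction (6 below 0, median 0.15). Ifitm3 was at 24.5 and 17 CPM in the cold and 29.4 and 53.5 CPM at room temperature (-1.06), the RNA sensor Ddx58 at 42.1 and 48.4 CPM and 21.4 and 25.9 CPM (0.95), Ifi27l2a at 42.1 and 63 CPM and 128 and 74.3 CPM (-0.80) and Xaf1 at 31.5 and 31.5 CPM and 24 and 17.3 CPM (0.68), none past the test. Ifitm3 and Bst2 were each at under 5% of their level in the highest class, which RNA released from other cells could give. Irf1 was at 126 and 121 CPM and 131 and 136 CPM. Isg15 (52.6 and 159.8 CPM and 96.1 and 135 CPM), Irf7 (24.5 and 67.8 CPM and 82.7 and 60.5 CPM), Zbp1 (14 and 63 CPM and 42.7 and 76 CPM) and Bst2 (66.6 and 109 CPM and 53.4 and 74.3 CPM) overlapped. Ifit3 was at 3.5 and 33.9 CPM and 10.7 and 6.91 CPM on 1 to 14 UMIs and was not tested, and cold 2 was again its highest library.

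**Figure D4:**
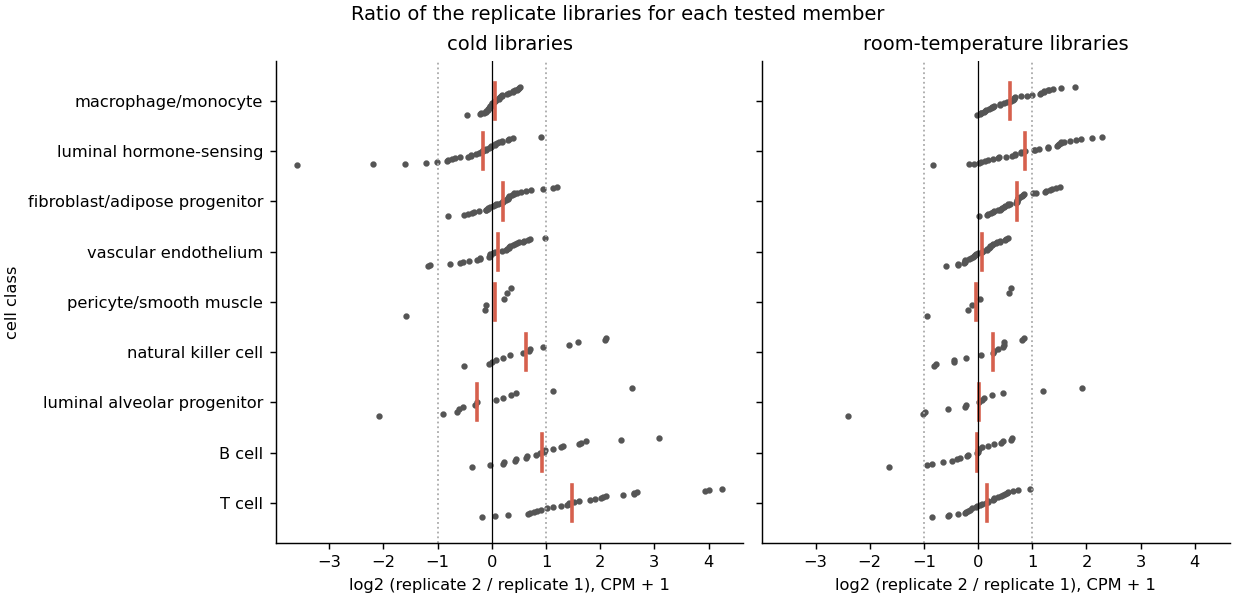
Log2 ratio of replicate 2 to replicate 1 in CPM + 1 (x axis) for each tested member (points) in each class (y axis), with the median as a bar, between the cold libraries (left) and between the room-temperature libraries (right); dotted lines mark 2-fold. The T cell points spread right on the left panel, and the macrophage, fibroblast and luminal hormone-sensing points lie right of 0 on the right panel, while the endothelial points centre near 0 on both.

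Counted per cell, the same libraries stood out. Each cell was thinned at random to 2000 UMIs, and cells with at least 5 UMIs from the 31 members were counted, with exact binomial 95% intervals that cover counting error only. In macrophage-like cells the share was 20.8% and 24.3% in the cold and 42.6% and 54.0% at room temperature, with intervals of 39.8 to 45.3% and 50.4 to 57.6% for the last pair. In fibroblast-like cells it was 14.3% and 15.5% in the cold and 22.2% and 32.9% at room temperature, and in endothelial-like cells 16.2% and 20.4% against 35.1% and 38.9%. Unthinned, the macrophage shares were 68.0%, 69.1%, 74.8% and 75.3%, since most cells hold several member UMIs at full depth.

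In T cells the thinned share was 2.38% in cold 1 and 20.4% in cold 2, against 3.47% and 3.33% at room temperature. Unthinned it was 18.8%, 49.0%, 14.6% and 40.7%, with room temperature 2 the library of the highest median UMI count in T cells. In cold 2 the top 10% of T cells held 55.9% of the member UMIs. In B cells the share was 6.22% and 13.2% in the cold and 4.42% and 0% at room temperature, where 0 of 102 cells allows a share of up to 3.55%. Luminal hormone-sensing-like cells had 1.41% and 0.604% in the cold and 2.29% and 3.76% at room temperature, a range in which intervals overlapped. Thinning left out the cells under 2000 UMIs, 38 to 211 macrophage-like and 25 to 117 T cells a library. Of the B cells it left out 22 of 215 and 104 of 256 in the cold and 204 of 521 and 23 of 125 at room temperature. Thinned to 1000 UMIs, the B cell shares were 1.40% and 7.83% in the cold and 1.18% and 1.71% at room temperature.

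**Figure D5:**
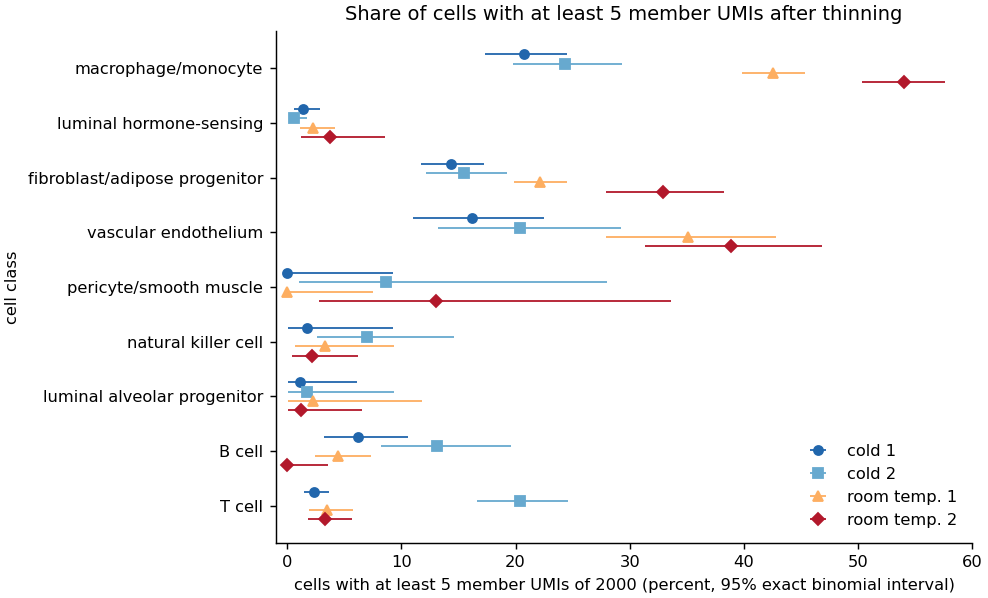
Percent of cells with at least 5 member UMIs after thinning each cell to 2000 UMIs (x axis, with exact binomial 95% intervals) in each class (y axis) and library (points). Macrophage-like cells run from 20.8% to 54.0%, with both room-temperature libraries above both cold ones, and T cells stay under 4% in 3 libraries with cold 2 at 20.4%.

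Whether cold acted differently on a member in 2 classes was tested in joint fits with the library as a block (edgeR quasi-likelihood, adjusted over all genes). Against T cells, 33 of 34 members had a lower estimate in macrophage-like cells (median difference -1.55), but none passed (smallest adjusted p = 0.107), and 0.00863% of all genes did. Against fibroblast-like cells the median difference was -0.11 and 1 member passed, where 0.667% of genes did: Oas2 fell less in macrophage-like cells, by 1.79 (SE 0.32, adjusted p = 0.0449). Against endothelial-like cells (median difference -0.38) 1 passed, where 0.528% of genes did: the cold effect on Irf1 was lower in macrophage-like cells (-1.31, SE 0.20, adjusted p = 0.0281). Neither difference passed without cold 1 or without cold 2, where a single cold library was left. Without cold 1 nothing else was called in either comparison, so those fits cannot decide on these members. Without cold 2 other genes were called in both comparisons and no member was. Against luminal hormone-sensing-like cells the median was -0.16 and none passed (smallest adjusted p = 0.172, 0.00753% of genes).

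Outside the members, type I interferon transcripts were nearly absent at this depth. Over all kept cells Ifnb1 had 1 UMI in each cold library, 22 in room temperature 1 (in 15 cells, 10 of them macrophage-like) and 2 in room temperature 2, Ifnab had 0 to 3 UMIs, and Ifna1, Ifna2, Ifna4 and Ifna5 had 0. Ifng, the type II interferon, had 241 and 282 UMIs in the cold and 62 and 145 at room temperature. In T cells Ifng was at 18.4 and 43.2 CPM in the cold and 4.34 and 4.82 CPM at room temperature and rose by 2.60 on the log2 scale (SE 0.44, adjusted p = 0.0218, edgeR). In natural killer-like cells it was at 452 and 235 CPM and 90.8 and 202 CPM (adjusted p = 0.0707).

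The makeup of the T cell class moved with the group: the cluster led by Cd8b1, Nkg7 and Ccl5 was 47.9% and 43.3% of it in the cold and 10.1% and 2.17% at room temperature. Its part in the values of Ifng and of the receptors below was not tested. Of the 8 receptors and kinases tested in T cells, 3 fell and none rose. The interferon gamma receptor chain Ifngr1 was at 101 and 117 CPM in the cold and 259 and 233 CPM at room temperature (-1.25, adjusted p = 0.00243). The type I receptor chain Ifnar1 was at 54.2 and 77.5 CPM and 134 and 123 CPM (-1.05, adjusted p = 0.0124), and Ifngr2 at 46.4 and 34.6 CPM and 80.6 and 65.9 CPM (-0.90, adjusted p = 0.039). None of the 8 passed in macrophage-like, fibroblast-like or endothelial-like cells.

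Among 55 further interferon-induced genes tested in macrophage-like cells 54 were below 0 (median -0.62) and 1 fell, the chemokine Cxcl10, at 34.3 and 38.8 CPM in the cold and 153 and 134 CPM at room temperature (-1.99, SE 0.15, adjusted p = 0.0128). Its room-temperature libraries agreed, with room temperature 1 the higher. In fibroblast-like cells 47 of 54 were below 0 (median -0.31) and 2 fell: Ifit3b, at 2.16 and 3.36 CPM and 9.66 and 14.2 CPM (adjusted p = 0.0329), and Lgals3bp, at 113 and 129 CPM and 237 and 275 CPM (adjusted p = 0.0153). In T cells 5 of 52 were below 0 (median 0.43) and 1 rose, the immunity-related GTPase Ifi47, at 99.5 and 174 CPM and 57.9 and 59 CPM (adjusted p = 0.0323). Ifi47 also rose in natural killer-like cells (133 and 148 CPM and 69.4 and 67.4 CPM, adjusted p = 0.0247, edgeR), as did Ifi209 (adjusted p = 0.0403), while Irf8 fell there from 993 and 1441 CPM to 361 and 647 CPM (adjusted p = 0.0072). The markers of that class itself were at 5597 and 7873 CPM in the cold and 9276 and 11527 CPM at room temperature. T cell markers in it were at 2751 and 2112 CPM and 2175 and 1617 CPM, and macrophage markers at 1416 and 898 CPM and 1393 and 819 CPM. Their part in these changes was not tested. In B cells Ifit3b had 16 and 26 UMIs in the cold and 1 and 0 at room temperature and rose (adjusted p = 0.0192).

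Immediate-early and heat shock genes, which respond to tissue dissociation, also moved with the groups. Of 20 tested, 7 rose in fibroblast-like cells (median 0.90), 4 in T cells (median 0.11) and 1 in B cells (median 0.65), and 7 of 19 rose in natural killer-like cells (median 0.66). None passed in macrophage-like (median 0.22), endothelial-like (median 1.21) or pericyte-like cells (median 1.24). In the luminal classes none passed either and most were below 0, 17 of 20 in the alveolar progenitor class (median -0.61) and 16 of 20 in the hormone-sensing class (median -0.42). Their part in the values of the members was not tested.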

How the data were processed

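The authors deposited a table of raw UMI counts for each library, genes by cell barcodes, made with Cell Ranger 3.0.2 on mm10/GRCm38, per the submitters' processing notes, which also name Seurat. No barcode held fewer than 500 UMIs. Cells with at least 500 genes and at most 15% mitochondrial UMIs were kept, and predicted doublets were removed by a nearest-neighbour score against simulated doublets at a rate of 0.8% per 1000 cells. Log-normalised counts of 2000 variable genes gave 30 principal components, 15 neighbours and Leiden clusters at resolution 1 (leidenalg 0.10.2). A cluster was named from at least 3 detected markers of 1 type, and clusters that met several lists without a clear lead stayed out.

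Raw UMIs were summed per library and class and tested in R 4.3.3 by the two-sided quasi-likelihood F-test of edgeR 4.0.16 (filterByExpr for low counts, TMM for scaling, Benjamini-Hochberg within a class, 0.05). A printed CPM uses plain totals, and log2 fold changes and the ratios of replicate libraries use the TMM scale. Ratios within single clusters are of mean CPM + 1 on plain totals. Alternatives were DESeq2 1.42.0, limma 3.58.1 (voom), other scaling, filters, clusterings and each library left out. The scripts were tested on simulated data. With 2 libraries a group, the smallest p that exact permutation allows is 0.333, so it was not used.

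Members with a call in a class are named, with up to 5 of the largest estimates per class at a mean of 20 CPM or more, and Irf7, Isg15, Ifit3, Ifitm3, Bst2 and Irf1 throughout. Other genes of the pathway are named where they passed the test, apart from Ifng in natural killer-like cells and the counts of interferon transcripts. The members and gene lists were chosen with earlier results of these data known. The replicate numbers of the labels do not state a shared day or batch and were not used to pair libraries. With the main settings, dendritic, plasmacytoid dendritic, neutrophil and Schwann classes had under 20 cells in some library and were not tested.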

Additional observations from a re-analysis of the deposited data

Results flagged for a closer look

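For 2 members the cold effect differed between classes by the test of the difference itself (edgeR quasi-likelihood, library as a block, adjusted over all genes). For Irf1 the log2 cold effect in macrophage-like cells minus that in endothelial-like cells was -1.31 (SE 0.20, adjusted p = 0.0281, 0.00964 with limma voom). Irf1 was lower in both cold libraries in macrophage-like cells and higher in both in endothelial-like cells. For Oas2 the effect in macrophage-like cells minus that in fibroblast-like cells was 1.79 (SE 0.32, adjusted p = 0.0449, 0.0743 with limma voom). Oas2 stood at 42.6 and 47.6 CPM in the cold and 49.2 and 68.8 CPM at room temperature in macrophage-like cells, so that the class with the higher level had the smaller change. With single libraries left out, whether either difference passed depended on the library. Without cold 1 nothing else was called either, while without cold 2 other genes were called in both comparisons and no member was.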

How the results depend on the processing

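The 9 calls (7 in fibroblast-like and 2 in macrophage-like cells) kept their direction under all 14 alternatives. Their groups did not overlap, so most of these alternatives could hardly have turned a direction. All 9 passed again with DESeq2, another library scaling, a replicate block, no filter on low counts, the looser cell filter and clustering without the members and the other listed genes. With Leiden resolution 2 and with doublets kept 8 did, without clusters that met a second marker list 5, and with the replicate numbers crossed 0. With either cold library left out, so that a single cold library remained, most or all of them no longer passed. The number of members called depended strongly on the settings. DESeq2 called 17 in macrophage-like, 9 in fibroblast-like, 2 in luminal hormone-sensing and 2 in endothelial-like cells. With no filter on low counts 27 were called in macrophage-like, 20 in fibroblast-like, 16 in T and 9 in B cells. It gave 7 in endothelial-like, 2 in luminal hormone-sensing and 1 in natural killer-like cells. Over all genes 480 of 17261 then fell in macrophage-like and 862 of 18399 in fibroblast-like cells. In endothelial-like cells 48 of 16381 fell, and in luminal hormone-sensing cells 60 of 18519. In the other direction 477 of 16760 rose in T, 73 of 14403 in B and 74 of 13277 in natural killer-like cells. A replicate block gave 29 in macrophage-like, 17 in fibroblast-like, 12 in T (11 higher, 1 lower) and 6 in B cells, and it raised the calls over all genes as well, from 32 to 510 fallen in macrophage-like, 222 to 654 fallen in fibroblast-like, 64 to 577 risen in T and 5 to 67 risen in B cells. With only 2 numbers a group the labels do not establish pairing: the deviations of same-numbered libraries correlated at 0.31 in macrophage-like, 0.26 in fibroblast-like and -0.38 in luminal alveolar progenitor-like cells. Crossing the numbers, an alternative chosen after seeing the data, gave 0 in macrophage-like, 1 in fibroblast-like, 7 in B and 1 in luminal alveolar progenitor-like cells. Over all genes, 6 of 10969 fell in macrophage-like and 22 of 11609 in fibroblast-like cells with it. In B cells 50 of 6510 genes rose, and in luminal alveolar progenitor-like cells 263 of 7292 fell. The looser cell filter gave 1 in B cells, where 5 of 6794 genes rose. It also let the Schwann class be tested, where 1 of 2 members and 30 of 1144 genes fell. Keeping doublets gave 1 in natural killer-like cells, where 39 of 4804 genes rose. Leiden resolution 2 gave 1 in macrophage-like cells (Rsad2), where 27 of 10973 genes fell. Without clusters that met a second marker list, 0 were called in macrophage-like and 8 in endothelial-like cells. Clustering without the members and the other listed genes, also chosen after seeing the data, moved no count of calls by over 1.5 times. The cause of these changes was not tested.

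With single libraries left out, the calls ranged from 0 to 28 in macrophage-like, 0 to 18 in fibroblast-like, 0 to 24 in T, 0 to 9 in B, 0 to 4 in endothelial-like, 0 to 4 in luminal alveolar progenitor-like, 0 to 1 in luminal hormone-sensing and 0 to 1 in natural killer-like cells. The members with a different cold effect ranged from 0 to 16 against T cells, 0 to 7 against fibroblast-like, 0 to 9 against endothelial-like and 0 to 3 against luminal hormone-sensing cells. All these fits left a single library in a group, and the calls over all genes changed between them as well. In macrophage-like, T, endothelial-like and luminal alveolar progenitor-like cells the highest member count came from the fit with the most genes called. In fibroblast-like, B and luminal hormone-sensing cells it did not. The ranges alone do not show that members were called more often than other genes. On plain library sizes 0% of T cell members were over 2-fold apart between the room-temperature libraries. Thinned to 1000 UMIs, the share of cells with at least 5 member UMIs was 6.85%, 6.18%, 14.1% and 31.5% in macrophage-like cells (cold 1, cold 2, room temperature 1 and 2) and 0.536%, 12.5%, 0.462% and 1.23% in T cells, and room temperature 2 stayed the highest in the first and cold 2 in the second. Depth limits the smallest classes most: members such as Ifit3 rested on 0 to 14 UMIs in pericyte-like, luminal alveolar progenitor-like and natural killer-like cells. These classes held 24 to 57, 52 to 110 and 59 to 162 cells a library.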

Other observations

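Members were also present in the classes that held too few cells for a test. Plasmacytoid dendritic-like cells, the specialised producers of type I interferon, carried Bst2 at 4534, 4693, 4052 and 4641 CPM in cold 1, cold 2, room temperature 1 and room temperature 2, far above every other class. Irf7 was at 116, 741, 261 and 257 CPM there, and the summed level of 31 members at 592, 4127, 900.4 and 1466 CPM on 13, 19, 8 and 37 cells, so that cold 2 was the highest library as in T and B cells. Neutrophil-like cells had the summed level at 2369 and 2602 CPM in the cold and 5442 and 4043 CPM at room temperature on 14 to 38 cells, with Isg15 at 270.3 and 618 CPM in the cold and 1195 and 894 CPM at room temperature. Dendritic-like cells had 3835 CPM in cold 1, where 8 cells gave 54 UMIs of Irf7, and 802 to 1192 CPM in the other libraries.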
